A study of Mus musculus with 2 samples.

Results

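The promoters described here are those that 2 protein-coding genes share head to head. In a bidirectional pair, 1 gene lies on the minus strand and the other on the plus strand, they are transcribed away from each other, and their nearest transcription start sites are at most 1000 bp apart. Start sites were those of all protein-coding transcripts of the GENCODE vM21 annotation on chromosomes 1 to 19 of the mm10 mouse genome, and no measured value entered the choice. This gave 1066 pairs with 2098 genes, which is 10.1% of the 20722 protein-coding genes on these chromosomes. A pair is written with the minus-strand gene first, as in Hspd1-Hspe1. Some genes were in more than 1 pair and some regions overlapped, so that the 1066 pairs covered 1038 separate regions. The comparison set was 18297 one-sided promoters, 1 per gene, at a representative start site with no opposite protein-coding start within 1000 bp. A further 327 genes had such a start nearby without forming a pair and were left out.

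Divergent gene pairs are common in compact parts of mammalian genomes, and many of them hold housekeeping genes of DNA repair, mitochondria and protein folding. Their shared promoters usually lie in CpG islands, stretches rich in the dinucleotide CG, and seldom carry a TATA box. RNA polymerase assembles separately in each direction, on either side of a region that is kept free of nucleosomes.

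Open chromatin was measured by DNase-seq, which sequences the ends left where DNase I cuts accessible DNA. The tissue was neural tube, from which brain and spinal cord form, taken from B6NCrl mouse embryos aged 11.5 days, with males and females pooled and no treatment or mutation. There was 1 group of 2 biological replicates with a common donor label, each sequenced as 1 library, so no test between groups was possible and values of both libraries are given side by side. Replicate 1 had 199653 peaks and 162801 hotspots, and replicate 2 had 154324 peaks and 132619 hotspots. A peak is a window of 150 bp with a score the authors deposited, of which the sources used here give no meaning, and a hotspot is a broader accessible region. A score was turned into a rank, its percentile within its own list, because lists of different lengths cannot be set against each other score by score. All 15 neural tube marker genes fixed for a check of the tissue, such as Sox2, Pax6 and Olig2, had a promoter peak in both libraries. Of 5 markers each, erythroid cells had 1 and 1 in replicates 1 and 2, myeloid cells 1 and 1, liver 0 and 0, endothelium 2 and 3, and muscle 1 and 2. Over all protein-coding genes, 66.9% in replicate 1 and 66.0% in replicate 2 had a peak within 500 bp of their representative start. The base composition of the marker promoters was not matched, so these counts are only a weak check of the tissue. The tissue is a mixture of cells, and more open cells cannot be told apart from more cutting per cell.

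The DNA between the start sites is shown first for 7 pairs with strong peaks in both libraries, because these short stretches are what both genes share. Letters in capitals match, on either strand, 1 of 10 short sequences bound by promoter factors. These are the ETS site CCGGAAG, the NRF1 site GCATGCG, the GC box GGGCGG of SP factors, the NFY site CCAAT, the YY1 site AAGATGG, the E2F site TTCCCGC, the cAMP response element TGACGTCA, the ZNF143 site ACTACAA, the TATA box TATAAA and the E-box CAGCTG. Neighbouring matches can overlap, as the GC box and the E2F site do in Mrps12-Sars2. All bases lie strictly between both starts, on mm10, read from 5′ to 3′.
Hspd1-Hspe1, chr1:55088025-55088131, plus strand: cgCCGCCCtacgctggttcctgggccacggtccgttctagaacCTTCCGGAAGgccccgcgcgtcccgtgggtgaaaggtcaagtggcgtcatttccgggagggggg
Ranbp1-Trmt2a, chr16:18248733-18248882, plus strand: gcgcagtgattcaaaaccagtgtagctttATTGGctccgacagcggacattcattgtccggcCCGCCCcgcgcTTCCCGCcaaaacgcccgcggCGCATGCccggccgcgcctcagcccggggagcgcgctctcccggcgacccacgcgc
Rpa1-Smyd4, chr11:75348325-75348432, plus strand: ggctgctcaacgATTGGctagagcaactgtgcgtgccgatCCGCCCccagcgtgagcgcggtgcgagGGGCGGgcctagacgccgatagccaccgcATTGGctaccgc
Nup98-Pgap2, chr7:102210177-102210334, plus strand: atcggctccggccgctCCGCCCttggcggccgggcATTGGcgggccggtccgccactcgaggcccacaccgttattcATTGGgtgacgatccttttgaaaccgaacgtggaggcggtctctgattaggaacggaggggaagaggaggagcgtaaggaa
Hadha-Hadhb, chr5:30155163-30155247, plus strand: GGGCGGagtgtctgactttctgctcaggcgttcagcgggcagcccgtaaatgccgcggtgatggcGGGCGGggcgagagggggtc
Sirt3-Psmd13, chr7:140881870-140881967, plus strand: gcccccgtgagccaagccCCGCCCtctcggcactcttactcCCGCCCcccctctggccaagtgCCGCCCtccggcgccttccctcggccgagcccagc
Mrps12-Sars2, chr7:28741821-28742001, plus strand: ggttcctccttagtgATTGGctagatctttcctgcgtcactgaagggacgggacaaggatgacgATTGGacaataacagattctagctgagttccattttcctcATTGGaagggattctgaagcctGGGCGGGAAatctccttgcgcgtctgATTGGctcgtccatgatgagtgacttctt

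In Hspd1-Hspe1, which encodes both parts of the mitochondrial chaperonin, the start sites were 108 bp apart and 2 overlapping ETS sites lay between them. Rpa1-Smyd4, where Rpa1 encodes a subunit of the single-strand DNA binding protein of replication, held 2 NFY sites and 2 GC boxes in 108 bp. Nup98-Pgap2 pairs a nuclear pore protein with a factor that remodels lipid anchors and held 2 NFY sites and 1 GC box. Mrps12-Sars2, a mitochondrial ribosomal protein and the mitochondrial seryl-tRNA ligase, held 4 NFY sites. Sirt3-Psmd13, a mitochondrial deacetylase and a proteasome subunit, held 3 GC boxes and none of the other 9 sequences.

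The next 4 stretches are from pairs with weak peaks or none, and are shown for contrast. Col4a4-Col4a3 encodes basement membrane collagens, Abcg5-Abcg8 both parts of a sterol transporter of liver and intestine, and Plcz1-Capza3 a sperm phospholipase and a sperm actin-capping protein. Il11-Tmem190 contains the gene of a cytokine. Abcg5-Abcg8 and Plcz1-Capza3 were chosen after their values were seen.
Col4a4-Col4a3, chr1:82586850-82586975, plus strand: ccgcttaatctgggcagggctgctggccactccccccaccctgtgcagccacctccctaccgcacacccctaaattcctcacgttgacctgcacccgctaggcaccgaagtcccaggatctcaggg
Abcg5-Abcg8, chr17:84683012-84683120, plus strand: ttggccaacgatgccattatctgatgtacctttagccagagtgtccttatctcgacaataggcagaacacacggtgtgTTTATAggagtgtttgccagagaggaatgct
Plcz1-Capza3, chr6:140041458-140041556, plus strand: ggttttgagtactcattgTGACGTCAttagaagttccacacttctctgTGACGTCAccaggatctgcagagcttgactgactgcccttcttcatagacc
Il11-Tmem190, chr7:4782860-4782936, plus strand: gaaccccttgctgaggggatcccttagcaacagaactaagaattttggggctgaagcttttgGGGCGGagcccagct

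Col4a4-Col4a3 held none of the 10 sequences between its starts. Abcg5-Abcg8 held a TATA box, Plcz1-Capza3 held 2 cAMP response elements, and Il11-Tmem190 held 1 GC box. The stretches shown were picked and do not stand for all pairs. In 300 bp centred on the midpoint, the NFY site was in 39.5% of the 43 pairs without a peak in either library. Among the 1016 pairs with a peak in both libraries it was in 40.8%. The GC box was in 14.0% and 67.7% of the same classes. These matches describe the letters and say nothing of binding in this tissue.

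Nearly every pair was open. A peak overlapped the region between the start sites or the 500 bp past either of them in 1020 of 1066 pairs in replicate 1 and in 1019 in replicate 2. These are 95.7% (95% exact binomial interval 94.3 to 96.8) and 95.6% (94.2 to 96.7), and the intervals cover counting error only. Among all protein-coding genes, 66.9% had a peak within 500 bp of their representative start in replicate 1 and 66.0% in replicate 2. Among one-sided promoters the shares were 63.5% and 62.5%, so that pairs exceeded them by 32.6 ± 0.610 percentage points (SD, n = 2). The difference was many times the spread between libraries. The same 1016 pairs were open in both libraries, 43 in neither, 4 in replicate 1 only and 3 in replicate 2 only.

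Most of that gap went with CpG content. The CpG ratio is the number of CG dinucleotides divided by the number expected from the C and G content, here over the 500 bp to either side of the midpoint or start, and values of at least 0.6 are typical of CpG islands. Of the pairs, 901 reached 0.6, against 8169 of 18297 one-sided promoters. Above that value 99.2% of pairs were open in each library, beside 98.5% and 98.3% of one-sided promoters, a difference of 0.845 ± 0.130 percentage points. Below it, 76.4% and 75.8% of 165 pairs were open, beside 35.3% and 33.7% of 10128 one-sided promoters. One-sided promoters under 0.6 had a median ratio of 0.227 and pairs under 0.6 a median of 0.495, so the composition was not matched within this lower class.

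**Figure D1:**
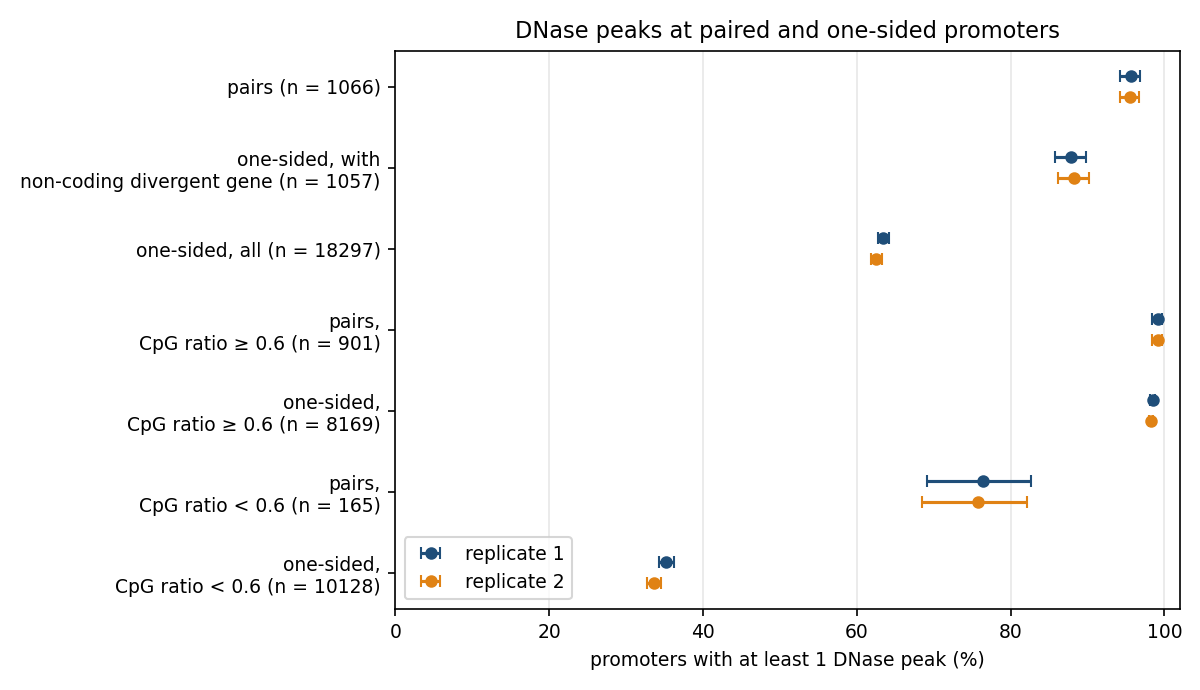
Percentage of promoters with at least 1 DNase peak (x axis) by promoter class (y axis, with the number of promoters), as points for each replicate with 95% exact binomial intervals. Pairs and one-sided promoters with a CpG ratio of at least 0.6 both sit above 98%, while below 0.6 pairs sit near 76% and one-sided promoters near 34%.

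The dependence on base composition was also seen when all promoters were split into 5 equal classes by GC content. In the lowest class only 13 pairs were found, of which 8 (61.5%) were open in each library, while 9.50% and 7.76% of 3851 one-sided promoters were. In the next class 76.5% and 79.6% of 98 pairs were open, beside 44.6% and 43.1% of one-sided promoters. In the highest class all 323 pairs were open in both libraries, beside 99.2% and 99.1% of one-sided promoters. Pairs were thus above one-sided promoters in every class, by least where nearly every promoter was open. The CpG ratio was not matched within these classes. Its median was 0.482 at pairs and 0.135 at one-sided promoters in the lowest class, and 0.611 and 0.284 in the next. In the highest class it was 0.851 and 0.842.

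**Figure D2:**
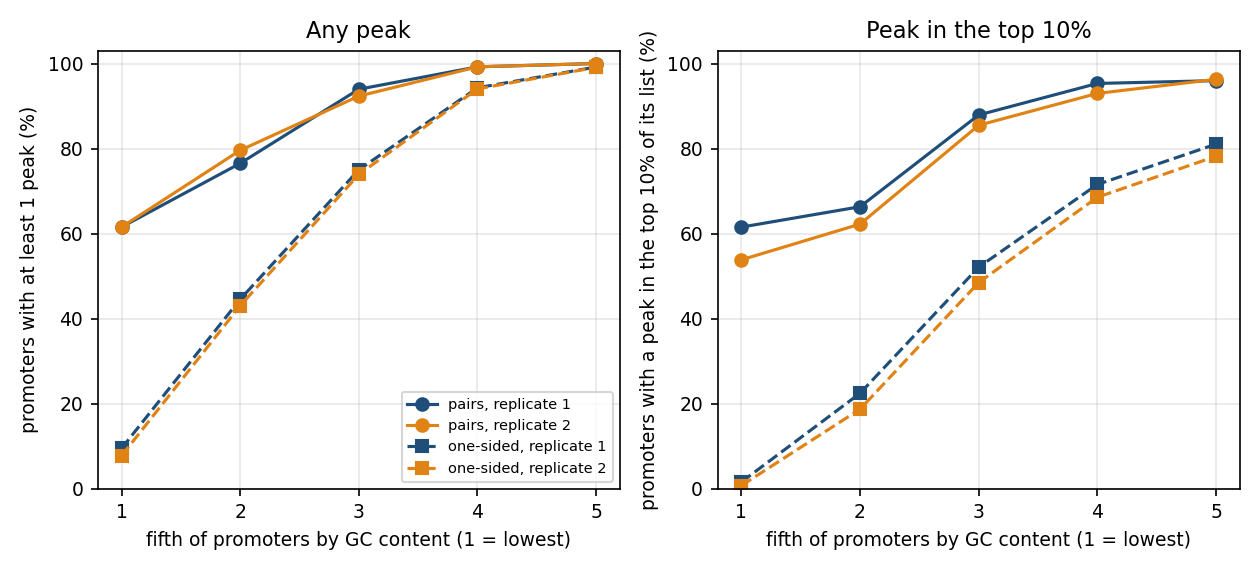
Percentage of promoters with at least 1 peak (left) and with a peak at or above the 90th percentile of its list (right), by class of GC content (1 lowest, 5 highest), for pairs (circles, solid lines) and one-sided promoters (squares, dashed lines) in each replicate. The curves converge at the highest class for any peak (100% and 99%) but stay apart for top peaks (96% against 78 to 81%).

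The strength of the peaks separated the classes also among CpG-rich promoters. The best peak of an open pair had a median rank of 97.8 in replicate 1 and 97.0 in replicate 2, beside 95.3 and 94.1 at one-sided promoters. A best peak at or above the 90th percentile was found at 967 pairs (90.7%) and 948 pairs (88.9%). Among all protein-coding genes the shares with such a peak were 49.5% and 46.8%, and among one-sided promoters 44.9% and 42.1%. With a CpG ratio of at least 0.6 on both sides they were 96.7% and 95.2% at pairs and 84.3% and 81.0% at one-sided promoters, a difference of 13.3 ± 1.35 percentage points (SD, n = 2). A pair region is longer than a one-sided window by the distance between the starts, and the best of more candidates ranks higher. When the one-sided window was lengthened upstream by the median distance of 120 bp, the difference in median rank stayed at 2.74. Scores are whole numbers with many ties, so a median rank moves in steps and a small shift would not show. The difference in top peaks among CpG-rich promoters was not recomputed with the longer window, so an effect of region length on it was not tested.

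Pairs held more peaks than one-sided promoters, by less when only CpG-rich promoters were compared. The mean was 1.59 and 1.61 peaks per pair in replicates 1 and 2, and 0.989 and 0.956 per one-sided promoter, a difference of 0.626 ± 0.0340 (SD, n = 2). With the lengthened one-sided window it was 0.583, and with a CpG ratio of at least 0.6 on both sides 0.112. The number of peaks was 1 at 521 pairs in replicate 1 and at 516 in replicate 2, and 2 at 364 and 349 pairs. Both libraries had the same number of peaks at 740 pairs, replicate 1 more at 155 and replicate 2 more at 171.

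Hotspots were only slightly wider at pairs. A hotspot overlapped 1026 pairs (96.2%) in replicate 1 and 1022 (95.9%) in replicate 2, beside 67.6% and 66.6% of all protein-coding genes. The median width of the widest hotspot was 1684 bp and 1277.5 bp at pairs, and 1528 bp and 1131 bp at one-sided promoters, a ratio of 1.12 ± 0.0194 (SD, n = 2). The median width over all hotspots of a list was 276 bp and 235 bp. Among CpG-rich promoters the ratio was 1.02 ± 0.0155, within 2 SD of equality. Exactly 1 hotspot overlapped the region at 907 pairs in replicate 1 and 865 in replicate 2. Both start sites fell into the same hotspot in 972 pairs (91.2%) and 943 pairs (88.5%).

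One-sided coding promoters that had a non-coding gene starting in the opposite direction within 1000 bp were also set beside the pairs. There were 1057 of them, with a median CpG ratio of 0.767 against 0.771 in pairs. They were open in 87.9% and 88.3%, which was 7.56 ± 0.333 percentage points less than pairs. Their median best rank was 97.0 and 96.2, or 0.829 ± 0.00559 points less than pairs. Their hotspots had median widths of 1817.5 bp and 1341 bp and were wider than those of pairs in both libraries, with a ratio of pairs to them of 0.940 ± 0.0185. Pairs of coding genes thus ranked above this class in openness and peak rank but not in width.

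The place of the peaks varied with the distance between the start sites. This distance ranged from 0 to 987 bp with a median of 120 bp and quartiles of 66 and 243 bp. In 446 pairs the starts were at most 100 bp apart, in 287 over 100 and up to 200 bp, in 128 up to 300 bp, in 105 up to 500 bp and in 100 up to 1000 bp. The share of open pairs was similar over these classes, from 90 of 100 pairs over 500 bp apart to 97.1% of 105 pairs between 300 and 500 bp in replicate 1, and from 92 of 100 to 97.1% in replicate 2. The mean number of peaks, in contrast, was 1.45 and 1.47 in the closest class and 2.17 and 2.13 in the widest, whose regions are also the longest.

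In most close pairs 1 peak covered both genes' starts, and in many wide pairs a peak lay near each start. A peak is always 150 bp wide and cannot cover both starts of pairs further apart than that. This part of the contrast therefore follows from the peak width. The strongest peak covered both start sites in 62.2% and 63.9% of the open pairs with starts at most 100 bp apart. At the midpoint of these pairs, 79.6% and 81.4% of all pairs of that class were covered by a peak. Over 500 bp apart the midpoint was covered in 11% and 10% of the pairs, and coverage was highest 300 bp to the side of the plus-strand gene, at 41.0% and 36.0%. In that class 54 and 52 of 100 pairs had a peak within 250 bp of each start, 18 and 19 near the minus-strand start only, and 15 and 18 near the plus-strand start only. At one-sided promoters coverage was highest 30 bp upstream of the start, at 38.3% and 39.0%, with closed promoters included.

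**Figure D3:**
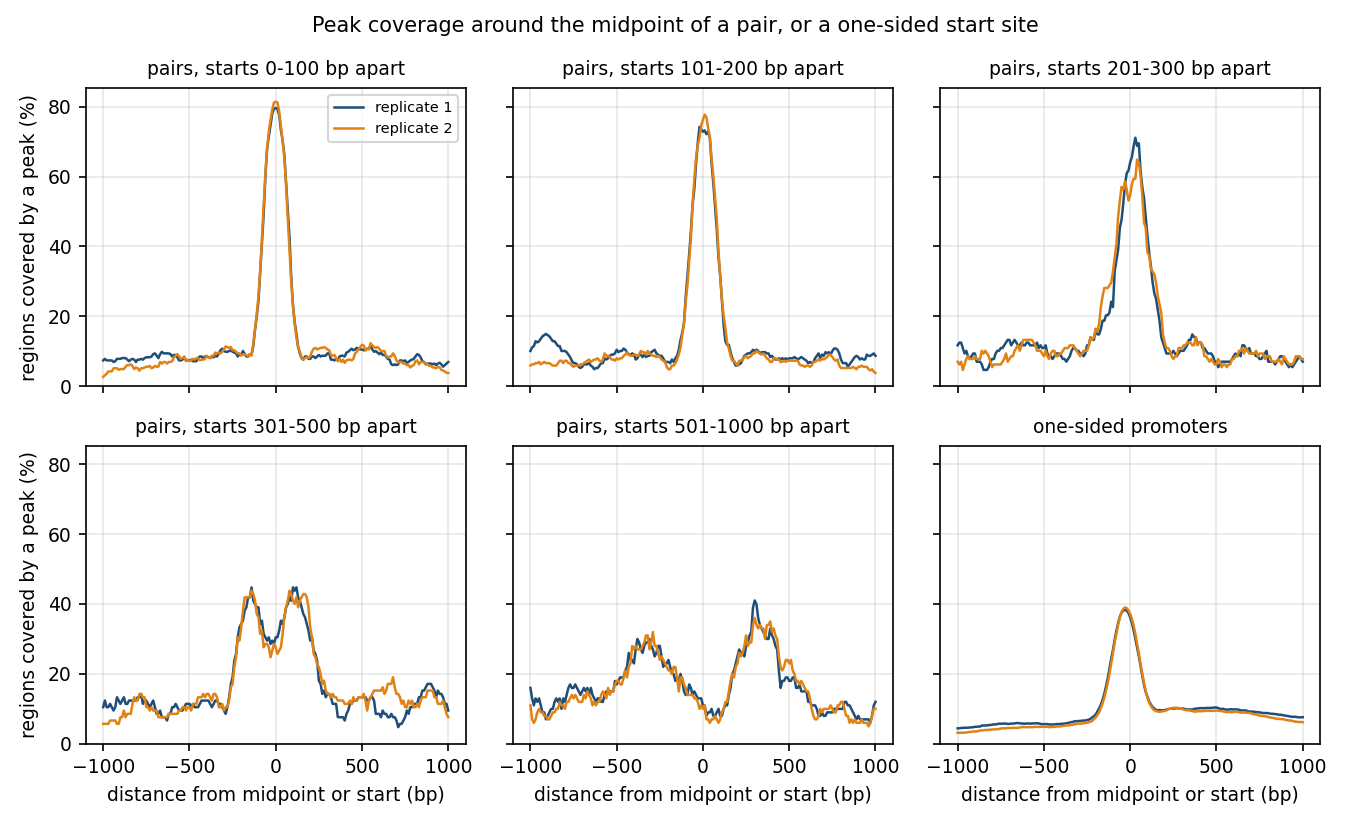
Percentage of regions covered by a peak (y axis) against the distance in bp from the midpoint between the starts (x axis, minus-strand gene to the left) for 5 classes of distance between the starts, and from the start site for one-sided promoters (negative values upstream), with 1 line per replicate. A single central maximum near 80% at 0 to 100 bp gives way to separate maxima on both sides in the 2 widest classes.

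The strongest peak of most open pairs was centred between the start sites. The centre of the strongest peak lay between the start sites in 61.0% of open pairs in replicate 1 and 60.3% in replicate 2, past the minus-strand start in 204 and 196 pairs, and past the plus-strand start in 194 and 209. Its median offset from the midpoint was 4 bp and 3.5 bp towards the plus-strand gene. Strand is an arbitrary label of a pair, so this even split says nothing of balance within a pair. Without regard to side, the median offset was 44.5 bp and 46.5 bp over all open pairs. In pairs with starts over 500 bp apart it was 324.5 bp and 351.5 bp. The strongest peaks of both libraries overlapped in 949 of 1016 pairs (93.4%), with a median distance of 20 bp between their centres.

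Hotspots of pairs reached into both genes. Where 1 hotspot held both starts, it reached a median of 729 bp into the minus-strand gene and 752.5 bp into the plus-strand gene in replicate 1, and 552 bp and 557 bp in replicate 2. It went further into the minus-strand gene in 48.1% and 48.5% of pairs. At one-sided promoters whose start lay in a hotspot, the hotspot reached 907 bp into the gene and 593 bp upstream in replicate 1, and 674 bp and 432 bp in replicate 2, and went further into the gene in 71.7% and 71.5%. The median reach into each gene of a pair thus lay between the downstream and the upstream reach of a one-sided promoter, in both libraries. Since strand is an arbitrary label of a pair, the longer and the shorter side were also compared without it. The longer side had a median of 931.5 bp and the shorter of 588 bp in replicate 1, and 717 bp and 437 bp in replicate 2. The longer side was at least 2 times the shorter in 26.5% and 30.0% of pairs, beside 40.6% and 42.9% of one-sided promoters.

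Of the peaks at pairs, 1464 of 1653 in replicate 1 (88.6%) and 1474 of 1666 in replicate 2 (88.5%) overlapped a peak of the other library. At one-sided promoters the shares were 82.3% and 85.7%. Split by rank the order was not kept. Peaks at or above the 90th percentile were found again in 96.5% and 96.0% at pairs and in 95.6% and 97.1% at one-sided promoters. Weaker peaks were found again in 62.6% and 68.1% at pairs and in 66.3% and 73.9% at one-sided promoters.

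The short sequences of promoter factors differed in frequency between pairs and other promoters. In 300 bp centred on the midpoint, 27.7% of pairs held an ETS site. In 300 bp centred 60 bp upstream of the representative start, 11.8% of all 20722 coding promoters held one. The shift is that of a pair at the median distance of 120 bp, so the windows of other pairs lie nearer to or further from their starts. Among CpG-rich promoters the shares were 30.3% of pairs and 17.3% of one-sided promoters, with exact intervals of 27.3 to 33.4 and 16.5 to 18.2. The YY1 site was found in 10.8% and 7.16% of these, and the ZNF143 site in 6.22% and 3.46%, and for both the intervals did not overlap. For the NFY site the shares were 40.7% and 35.2%, again with intervals that did not overlap. At the median distance a pair window holds the starts of both genes, whereas a one-sided window is placed on the start of a single gene. The shares were not set per start. Whether the higher shares at pairs go beyond those of separate starts brought together was therefore not tested, for these or the other sequences.

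Other sequences differed less or the other way. The GC box was in 65.1% of pairs and 47.5% of all promoters, but among CpG-rich promoters in 70.4% of pairs and 75.1% of one-sided promoters. The NRF1 site was in 7.32% of pairs and 4.45% of all promoters, and in 8.21% and 7.19% of the CpG-rich ones, with overlapping intervals. The E2F site was in 10.6% of pairs and 6.48% of all promoters, and the cAMP response element in 4.50% and 2.48%. In the CpG-rich classes they were in 11.3% and 10.3%, and in 4.88% and 3.62%, with overlapping intervals. The TATA box was in 5.16% of pairs and 11.6% of all promoters, but in 41 of 901 and 441 of 8169 of the CpG-rich classes, with overlapping intervals. The E-box, bound by the basic helix-loop-helix factors of neurogenesis, was in 11.9% of pairs and 16.5% of all promoters. Among the CpG-rich ones it was in 11.1% and 14.0%, with intervals that overlapped narrowly. At least 1 of the ETS, NRF1, YY1 and ZNF143 sites was present in 43.0% of pairs and 23.7% of all promoters. In the CpG-rich classes it was 46.2% of pairs and 30.6% of one-sided promoters.

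The share of pairs open in both libraries varied with some of the sites they held and little with others. No test of this was run. All 64 pairs with a ZNF143 site had peaks in both libraries, as did 291 of 295 pairs (98.6%) with an ETS site, beside 952 of 1002 pairs without a ZNF143 site and 725 of 771 (94.0%) without an ETS site. With a GC box it was 688 of 694 (99.1%). Without it 328 of 372 pairs (88.2%) were open in both, with a median CpG ratio of 0.728 against 0.796 for those that held one. With and without the NFY site the shares were 95.6% and 95.1%, for YY1 96.3% and 95.2%, and for E2F 96.5% and 95.2%. For NRF1 they were 97.4% and 95.1%, and for the cAMP response element 97.9% and 95.2%. The share was lower with the E-box, 94.5% against 95.4%, and with the TATA box, 90.9% against 95.5%. Hotspots were narrower at pairs with an ETS site than without, at 1572 bp against 1722 bp in replicate 1 and 1221 bp against 1321 bp in replicate 2. At pairs with an NRF1 site they were wider, at 1880.5 bp against 1674 bp and 1453.5 bp against 1272.5 bp.

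Which genes are in pairs differed strongly by function. Membership follows from the annotation, not from the DNase data, and is given as counts beside the 10.1% of all genes. Histones, taken by symbols of the Hist1 to Hist4 clusters, had 27 of 67 genes (40.3%) in pairs. The mitochondrial ribosome had 26 of 78 (33.3%), DNA replication and repair 50 of 152 (32.9%), the respiratory chain 31 of 97 (32.0%) and chaperones 23 of 83 (27.7%). Ligases that charge tRNAs had 9 of 35 (25.7%), the proteasome 10 of 48 (20.8%) and the cytosolic ribosome 13 of 78 (16.7%). Zinc finger genes had 32 of 438 (7.31%), and receptors and cytokines of the immune system 8 of 295 (2.71%). None of 1086 olfactory receptors, 110 keratins or 42 beta-defensins was in a pair. Of 189 developmental genes of the neural tube, only Rfng was, with Gps1.

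**Figure D4:**
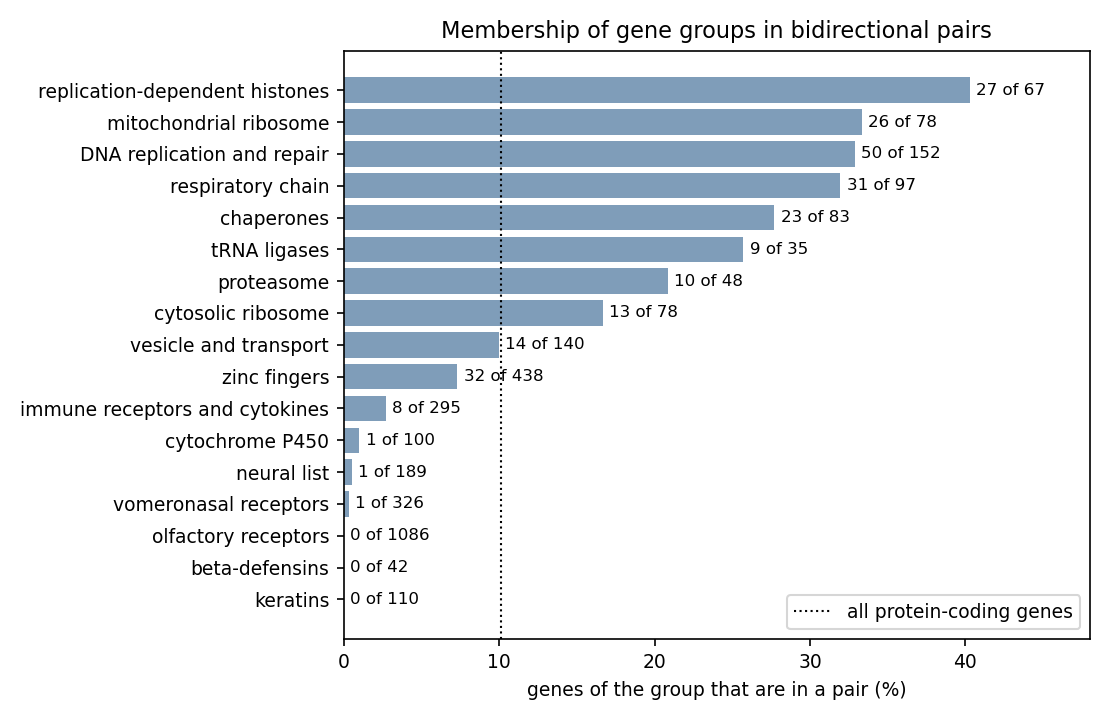
Percentage of the genes of each group that are in a bidirectional pair (bars, with counts), and the share of all protein-coding genes (dotted line, 10.1%). Histones, mitochondrial ribosome, DNA replication and repair and respiratory chain lie above 30%, while olfactory receptors, keratins and beta-defensins are at 0.

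The share of open pairs in the housekeeping groups was near the 95.7% and 95.6% of all pairs. All 25 pairs with a mitochondrial ribosomal gene and all 32 with a respiratory chain gene had a peak in each library, as did 50 of 51 pairs with a gene of DNA replication or repair. The best peaks of the mitochondrial ribosome pairs had median ranks of 97.5 and 96.2, beside 96.5 and 95.1 at the one-sided promoters of the same group. For DNA replication and repair they were 98.4 and 97.1, beside 97.8 and 96.7. The order was not the same in every group. For the cytosolic ribosome, with 12 open pairs of 13, it was 97.5 and 96.0 at pairs and 97.8 and 96.8 at one-sided promoters. Proteasome pairs had 97.5 and 96.4, beside 97.5 and 96.6, and so were nearly equal in replicate 1 and slightly lower in replicate 2. Pairs with tRNA ligases and with vesicle genes were also lower in replicate 2 only, at 95.9 beside 96.6 and at 95.5 beside 96.2. Chaperone pairs had median ranks of 98.4 and 98.6, with 19 of 21 pairs open. Pairs with an immune gene were open in 5 of 8 in each library, with median ranks of 73.3 and 75.7. The one-sided promoters of that group had higher ones, 79.8 and 79.1.

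Rfng-Gps1 was the only pair with a gene of the neural list. Rfng encodes a glycosyltransferase that modifies Notch receptors, and Gps1 a subunit of the COP9 signalosome. Its best peak ranked 93.2 in replicate 1 and 94.1 in replicate 2, and its hotspot was 1189 bp and 861 bp wide. Of the 187 one-sided genes of the neural list, 182 were open in replicate 1 and 178 in replicate 2, with lower median ranks, 92.2 and 90.4, but wider hotspots, 3618 bp and 1862 bp at the median.

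Histone pairs had lower median ranks and narrower hotspots than pairs at large. Of 14 pairs, 13 joined 2 histone genes, and 11 were open in each library. Hist1h2bq-Hist1h2ao, Hist1h2ap-Hist1h2br and Hist1h2ba-Hist1h2aa had no peak. The open histone pairs had median ranks of 94.1 and 89.7 and a mean of 2.14 and 2.57 peaks over all 14. Their median hotspot width was 1102 bp in replicate 1 and 320 bp in replicate 2, whereas over all pairs it was 1684 bp and 1277.5 bp. Hist1h2ak-Hist1h2bn, for example, had a widest hotspot of 1567 bp in replicate 1 and 320 bp in replicate 2 with 4 and 5 peaks. The libraries therefore differed at histone pairs more than at pairs at large. Histone genes have near-identical copies, and the sources used here do not say how the authors treated reads that match several places, so these values are uncertain.

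Of 21 divergent pairs listed as well known from the literature, 16 were members and all 16 had a peak in both libraries. The other 5 missed the rule by distance or orientation. Duox1-Duoxa1 had starts 1942 bp apart, and in the other 4, such as Ppat-Paics, Col4a1-Col4a2 and Tk1-Afmid, the annotated starts crossed, in these 3 by 196, 21 and 118 bp. The ranks of the 16 members ran from 45.3 to 99.9 with a median of 98.4 in replicate 1, and from 36.8 to 99.9 with a median of 97.0 in replicate 2.

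Known pairs with genes of DNA repair and of the cell cycle had high ranks. Atm-Npat joins the kinase of the DNA break response with a coactivator of histone genes, and its single peak ranked 99.9 and 99.7, at offsets of 17.5 bp and -2.5 bp from the midpoint (positive towards the plus-strand gene). Mcm4-Prkdc, a subunit of the replicative helicase and the DNA-dependent protein kinase, ranked 99.8 and 99.7. Its strongest peak lay on the Mcm4 side of the midpoint in both libraries, at an offset of -153.5 bp. Brca1-Nbr1, with the breast cancer gene and an autophagy receptor, ranked 99.1 and 97.2. In Brca1-Nbr1 the libraries differed in place, since the strongest peak had an offset of 676.5 bp, on the Nbr1 side, in replicate 1 and of -83.5 bp in replicate 2.

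Known pairs with roles in mitochondria, metabolism or RNA processing ranked from 90.8 to 99.9 in replicate 1. Hspd1-Hspe1 ranked 99.9 in both libraries, and Ranbp1-Trmt2a, with a regulator of the Ran GTPase and a tRNA methyltransferase, also 99.9 in both. Gart-Son, with an enzyme of purine synthesis and a splicing factor, ranked 99.6 and 99.3. Hadha-Hadhb, the 2 subunits of the mitochondrial trifunctional protein of fatty acid oxidation, ranked 96.0 and 96.6 with its peak 5.5 bp from the midpoint in both. Sirt3-Psmd13 ranked 97.8 and 96.4, and Mrps12-Sars2 97.5 and 94.5. Surf1-Surf2, with an assembly factor of cytochrome oxidase, had starts only 22 bp apart and ranked 90.8 and 92.2.

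The 2 weakest known pairs were of genes known for their roles in other organs. Duox2-Duoxa2, an oxidase of the thyroid and its maturation factor, ranked 70.0 and 70.6, although its hotspot was 4071 bp wide in replicate 1 and 2218 bp in replicate 2. Col4a4-Col4a3, collagens of the kidney filter, ranked 45.3 and 36.8 with a hotspot of 644 bp in replicate 1, which was 3.20 times as wide as in replicate 2. Among the remaining known pairs, Psmb9-Tap1, parts of the immunoproteasome and the antigen peptide transporter, ranked 94.6 and 93.5. Pdcd10-Serpini1, where Serpini1 encodes a neuronal protease inhibitor, ranked 98.9 and 97.8.

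**Figure D5:**
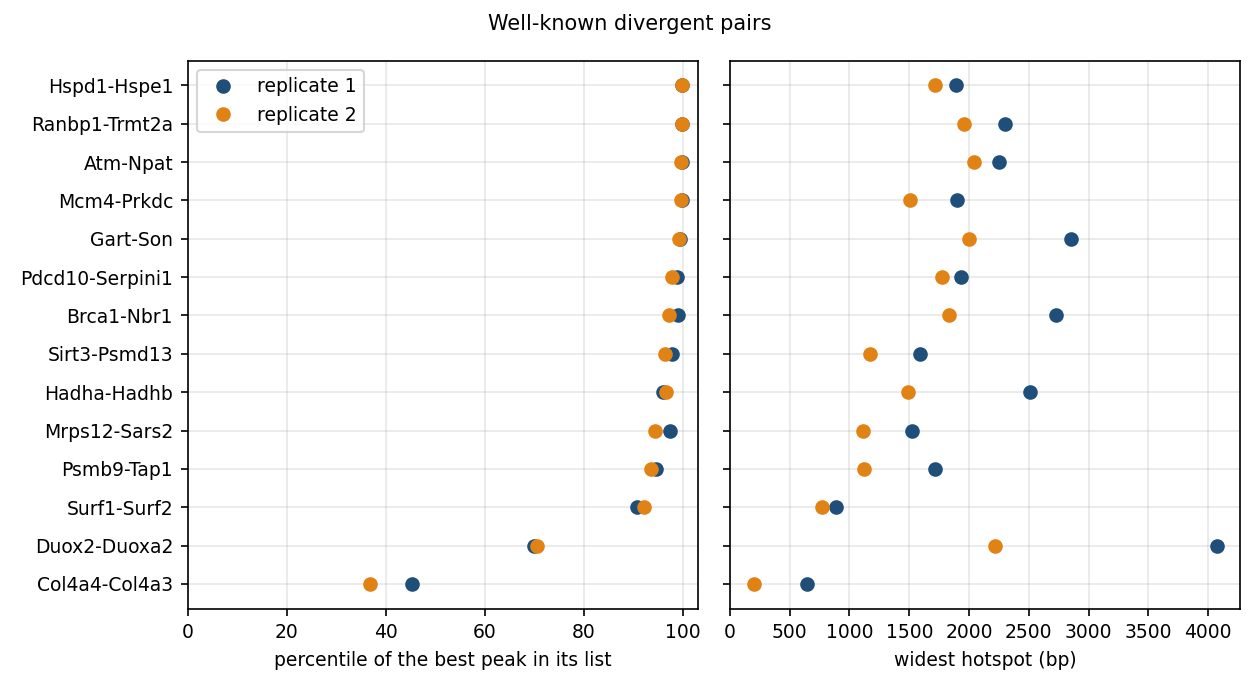
Percentile of the best peak within its list (left) and width of the widest hotspot in bp (right) for 14 of the 16 known pairs that are members, ordered by mean percentile, with 1 point per replicate. All 14 but Duox2-Duoxa2 and Col4a4-Col4a3 lie at or above 90.8 in replicate 1.

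The 5 pairs with the highest mean rank over both libraries were Nup98-Pgap2, Nfya-Oard1, Hspd1-Hspe1, Ranbp1-Trmt2a and Rpa1-Smyd4. Nfya encodes a subunit of the CCAAT-binding factor NFY. The scores as deposited were 148 and 142 at Nup98-Pgap2, 148 and 138 at Nfya-Oard1, and 145 and 141 at Rpa1-Smyd4. All 5 pairs had starts 108 to 159 bp apart. In Nfya-Oard1 the strongest peak lay inside Nfya in both libraries, at an offset of -269.5 bp, and in Rpa1-Smyd4 it lay between the starts, 32.5 bp from the midpoint.

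The widest hotspots were far above the median width of pairs. Brd2-H2-DMa, with a reader of acetylated histones and a chaperone of antigen presentation, had a hotspot of 5481 bp in replicate 1 and 4999 bp in replicate 2. Peg3-Usp29, an imprinted pair of which Peg3 encodes a zinc finger protein, had 4709 bp and 3564 bp. Srgap2-Fam72a, where Srgap2 acts in neuronal migration, had 4612 bp and 3459 bp, Zbtb25-Zbtb1, both zinc finger genes, 4476 bp and 3005 bp, and Nab2-Nemp1, with a corepressor of EGR factors, 4268 bp and 3133 bp. The width was smaller in replicate 2 at all 5, as was the median over all pairs.

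In the pairs with the most peaks the accessible region was called in several pieces. H2-T22-Gm6034 had 6 and 7 peaks and 2700097O09Rik-Srp54a 6 and 5, but the widest hotspot there was 264 bp and 262 bp, the same in both libraries. Mfsd8-Abhd18, of which Mfsd8 encodes a lysosomal membrane protein, had 5 peaks in each with a widest hotspot of 176 bp. In these 3 regions the signal was called as 7 and 7, 5 and 4, and 5 and 5 separate hotspots. Ccni-2010109A12Rik and Cyb5d1-Naa38, with 5 peaks in each library, had 4 and 4 hotspots each. Their widest hotspots were 1006 bp and 869 bp in the former, and 4992 bp and 893 bp in the latter. A cause of this broken pattern was not tested.

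Most of the 43 pairs without a peak in either library were poor in CpG. Of the 43, 36 (83.7%) had a CpG ratio under 0.6, beside 165 (15.5%) of all pairs, and the median was 0.245. Those at or above 0.6 included the histone pairs without a peak and pairs with Gm3448. Trp53i13-Abhd15, at 0.632, was also among them, with both starts in 1 hotspot of 3462 bp in replicate 1 and 1564 bp in replicate 2. In 22 of the 43 no other start site of either gene had a peak, in 21 at least 1 gene was open at another of its starts, and in 6 both were. The 10 closest of them included Glo1-Dnah8, with an enzyme that detoxifies methylglyoxal and a dynein of cilia and flagella. Also among them were Best1-Rab3il1, with a chloride channel of retinal pigment epithelium, and Slc30a3-Dnajc5g, with a zinc transporter of synaptic vesicles. Rnf151-Rps2, Dusp3-Cfap97d1, Usp37-Plcd4, Il11-Tmem190, Gm3448-Gm3435 and 1700028J19Rik-Gm36864 had neither peak nor hotspot in the region of the pair. Of their genes, Rps2, Dusp3, Cfap97d1, Usp37, Plcd4 and 1700028J19Rik were open at another of their starts. So were Glo1, Rab3il1 and Slc30a3, so the absence of a peak concerns the paired start and not the whole gene. 4930442H23Rik-Dapk3 had no peak but a hotspot of 1017 bp and 991 bp, and Dapk3 was open at another start. Outside the 10 closest, Pinlyp-Xrcc1 also had a hotspot without a peak, of 995 bp and 1033 bp, and Cln3-Apobr had one of 1419 bp in replicate 1 only. Gm3448 lies among near-identical copies, so its value is uncertain.

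More than the average share of these pairs were built on minor starts. In 842 pairs both starts were within 500 bp of the representative start of their gene, and of these 97.5% were open in each library and 20 in neither. In the other 224 pairs the shares were 88.8% and 88.4%, with 23 open in neither. The 113 pairs with a gene known only by a clone or model name were open in 88.5% and 87.6%, and the 953 pairs of named genes in 96.5% of each library.

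The 7 pairs open in 1 library had weak peaks. In replicate 1 only, A330070K13Rik-Caln1 ranked 49.5, Tmc6-Tmc8 46.7, Cabp4-Gpr152 34.9 and Nt5c3b-Klhl10 28.8. In replicate 2 only, Zfp512b-Prpf6 ranked 44.6, Mettl6-Eaf1 31.0 and Ifit1bl2-Ifit1 16.2. All 7 had a CpG ratio under 0.4, and all 7 ranks lay below the middle of their lists.

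Values next to the distance limit are given as a description, with no test. Btf3l4-Txndc12, with starts 987 bp apart, ranked 99.7 and 99.8, and Asphd1-Sez6l2, at 981 bp, 94.8 and 93.9. Nacc1-Trmt1, at 1004 bp and so not a member, ranked 97.5 and 96.8, and 5330417C22Rik-1700013F07Rik, at 1005 bp, 91.4 and 87.8.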

How the data were processed

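DNase-seq peaks and hotspots of 2 neural tube libraries were used, which the authors called separately in each library on mm10, per the file headers and labels. The sources used here name no aligner, caller or threshold. The authors deposited 1 score per peak, which never exceeded 150 and served only to rank peaks within a list (mid-rank for ties), and a −log10 q-value per hotspot, used in 1 alternative. Depth is unknown, since the files hold no read counts. Repeated rows were removed, 45 in replicate 1 and 22 in replicate 2. Per the labels, the replicates carry separate biosample labels and a common donor label.

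Pairs and one-sided promoters came from GENCODE vM21 and bases from the GRCm38.p6 sequence of RefSeq, the assembly of mm10. An overlap of 1 bp counted. Composition was taken over 500 bp to either side and intervals are exact (Clopper-Pearson, 95%). No test was run, since there is 1 group. The members, gene groups and motifs were chosen with earlier results of these data known. Named pairs were the listed well-known ones, the 5 highest by rank, peak number and hotspot width, the 10 closest without a peak, those with a peak in 1 library, the 2 on each side of the distance limit and any with a gene of the neural list; some of these are not reported here. Scripts ran in Python 3.11.15 with pandas 2.3.3 and scipy 1.17.1 and were tested on simulated data.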

Additional observations from a re-analysis of the deposited data

How the results depend on the processing

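A value was taken as moved when it left the range of 1 SD between the 2 libraries, which is narrow for several measures, or, for a motif, the exact interval of its share. The differences between pairs and one-sided promoters in the share open, median rank, mean peaks and hotspot width kept their direction under the alternatives run. The GC box did not, being more frequent at pairs overall and less frequent among CpG-rich promoters, nor did the share of peaks found again, which was lower at pairs among weaker peaks. Leaving out either replicate gave shares of pairs with a peak of 95.6 and 95.7%, 1.59 and 1.61 peaks per pair and differences in the share of 32.2 and 33.1 percentage points. With a CpG ratio of at least 0.6 on both sides the differences shrank to 0.845 percentage points in the share, 1.42 in the median rank and 0.112 in mean peaks, and the width ratio to 1.02. With starts at most 500 bp apart (966 pairs) the share open was 96.1%, peaks per pair 1.54, peaks found again 89.4%, both starts in 1 hotspot 92.7%, the width ratio 1.10 and the difference in mean peaks 0.569. With only the outer 5′ end of each gene (735 pairs) the share was 96.6%, peaks 1.58 and the differences 35.2 points in share and 3.05 in rank. With all transcripts (1201 pairs) the values were 94.3%, 1.56 peaks and 88.0% found again, and with crossed starts added (1233 pairs) 95.5%, 1.62 and 87.3%. The higher-scoring 50% of peaks gave 94.8%, 1.51 peaks, a median rank of 94.9 within the shorter list, 91.6% found again and differences of 35.2 points in share and 4.89 in rank. Equal numbers of peaks gave 1.58 peaks, 89.2% found again and differences of 33.3 points and 3.12. Counting only peaks centred in the region gave 1.51 peaks and 89.9% found again, and 200 bp past either start gave 94.6%, 1.23 and 94.2%. An overlap of 75 bp left 83.0% of peaks found again. The lengthened one-sided window gave a difference in mean peaks of 0.583, and one-sided promoters without a non-coding divergent gene a difference in share of 34.2 points. Restricting pairs to starts near the representative ones, chosen after seeing the data, gave 97.5% and a difference of 34.5 points. In 300 bp around the strongest peak the ETS site was in 30.8% of pairs, the GC box in 74.2% and the TATA box in 3.33%. Apart from the motifs and from leaving out a library, which with 2 libraries cannot leave that range, 34 recomputed values stayed within it and 40 moved. Of the motif shares, 7 stayed and 3 moved. No paired analysis was possible because there is 1 group. Depth is unknown, so a pair without a peak may be open below what these lists detect.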
